A study of Homo sapiens with 6 samples.

Results

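The genes described here encode the proteins of the human centromere and kinetochore, 34 genes taken by symbol from a fixed list, all of which were among the 60564 genes of the deposited count table, each on 1 row. They were followed in CAL27, an established human tongue squamous carcinoma line, in 3 libraries of cells carrying a lentivirus with CNTNAP2-203 (here CNTNAP2-203 OE, for overexpression) and 3 libraries of cells carrying a control vector, whose descriptions name EGFP (here control). Cells of both groups had been infected with lentivirus and kept under 5 μg/ml puromycin for 2 weeks, so the comparison is between infected and selected lines, and parental CAL27 cells were not analysed here. CNTNAP2-203 is a transcript of CNTNAP2, a neurexin-related adhesion gene. Nothing in the labels tells if replicates are separate cultures or infections. The p-values therefore reflect spread among 6 libraries that may be technical. All 34 genes passed the filter on low counts and are among the 18786 genes tested.

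The kinetochore is the protein assembly that ties each chromosome to spindle microtubules during cell division. It is built on the centromere, where the histone variant CENP-A marks the site. CENP-A is placed by its chaperone HJURP after the MIS18 proteins have prepared the chromatin. A set of inner kinetochore proteins, the constitutive centromere-associated network (CCAN), sits on this chromatin through the cell cycle. On entry into mitosis the CCAN recruits the outer network of KNL1 and the MIS12 and NDC80 complexes, together called KMN, and the NDC80 complex holds the microtubule with help from the SKA complex. Large corona proteins such as CENPE and CENPF join for the time of division. Many of these genes are transcribed periodically in dividing cells, under E2F factors and the MuvB and FOXM1 machinery.

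The libraries held 36843190 to 42412703 counts in CNTNAP2-203 OE and 38769375 to 41754789 counts in control. CNTNAP2 itself had 119280 to 156055 counts in CNTNAP2-203 OE and 0 to 4 counts in control, which matches the labels. The 10 squamous epithelial markers were all detected in both groups and summed to 14306 to 17270 CPM in CNTNAP2-203 OE and 14179 to 16155 CPM in control (CPM, counts per 1000000 counts of a library, scaled with TMM, the trimmed mean of M-values). The sum does not show single markers, whose log2 fold changes ran from -0.64 for DSG3 to 0.34 for KRT5. TP63 was at 197, 190 and 70.9 CPM in CNTNAP2-203 OE replicates 1, 2 and 3, and at 187 to 258 CPM in control. The 7 fibroblast markers summed to 40.1 to 43.0 CPM in CNTNAP2-203 OE and 40.9 to 46.0 CPM in control, the 6 leukocyte markers to 22.5 to 28.6 against 22.9 to 33.2 CPM, nearly all of it CD14, and the 4 endothelial markers to 7.74 to 11.5 against 5.98 to 9.58 CPM, with KDR at 0 in every library and PTPRC at 5 counts or fewer. CNTNAP2-203 OE replicate 3 stood apart from its group, with the lowest total, the lowest TMM factor of the 6 (0.951) and a level of the proliferation marker MKI67 of 61.9 CPM, where replicates 1 and 2 had 341 and 368 CPM. TOP2A was also lower in replicate 3 (302 CPM, against 405 and 426 CPM). Other proliferation markers were higher in it: PCNA (311, against 242 and 239 CPM), CCNB1 (224, against 193 and 189 CPM) and E2F1 (50.2, against 47.9 and 42.8 CPM). Because replicate 3 stood apart, the number of genes called higher in the main test is given below also without CNTNAP2-203 OE replicate 3.

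Centromere and kinetochore genes were mostly higher in CNTNAP2-203 OE, with 4 calls among the 10 outer kinetochore (KMN) genes, 1 among the 14 inner kinetochore (CCAN) genes and 1 among the 3 SKA genes. Of the 34 genes, 6 rose past an adjusted p of 0.05 in edgeR's quasi-likelihood test over all genes: CENPU in the inner kinetochore, NDC80, SPC25, ZWINT and DSN1 in the outer kinetochore, and SKA3 in the SKA complex. None fell, and none was lower at an unadjusted p under 0.05 in edgeR or called lower by DESeq2 or limma-voom. Over the transcriptome, 150 genes (0.798%) were called higher and 112 (0.596%) lower, while the 6 calls are 17.6% of the 34 genes. At an unadjusted p under 0.05, 24 of the 34 were higher (9.41% of all tested genes were) and none was lower (7.84% of all tested genes were). The log2 fold change was positive for 32 of the 34 (94.1%), against 49.6% of all tested genes, and its median was 0.45 (1.36-fold), against -0.004 over all tested genes. Every CNTNAP2-203 OE library lay above every control library for 26 of the 34 genes (76.5%), which was so for 13.7% of all tested genes, and in no gene did all of them lie below, as they did for 12.8% of all tested genes. The genes were chosen with earlier results of these libraries known, so these shares describe them and are not independent evidence of their direction. The 5 proliferation markers MKI67, PCNA, TOP2A, E2F1 and CCNB1, all detected, had a summed level of 949.8 to 1264 CPM in CNTNAP2-203 OE and 738 to 830 CPM in control. PCNA, E2F1 and CCNB1 passed (log2 fold changes 1.02, 0.92 and 0.68), TOP2A did not (0.40, edgeR adjusted p = 0.212), and neither did MKI67 (0.17, edgeR adjusted p = 0.918), which in CNTNAP2-203 OE replicate 3 lay below all 3 controls (199 to 261 CPM). The part of these markers in the results was not tested. In RNA from whole cultures, more cells in division and more RNA of these genes per cell cannot be told apart.

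**Figure D1:**
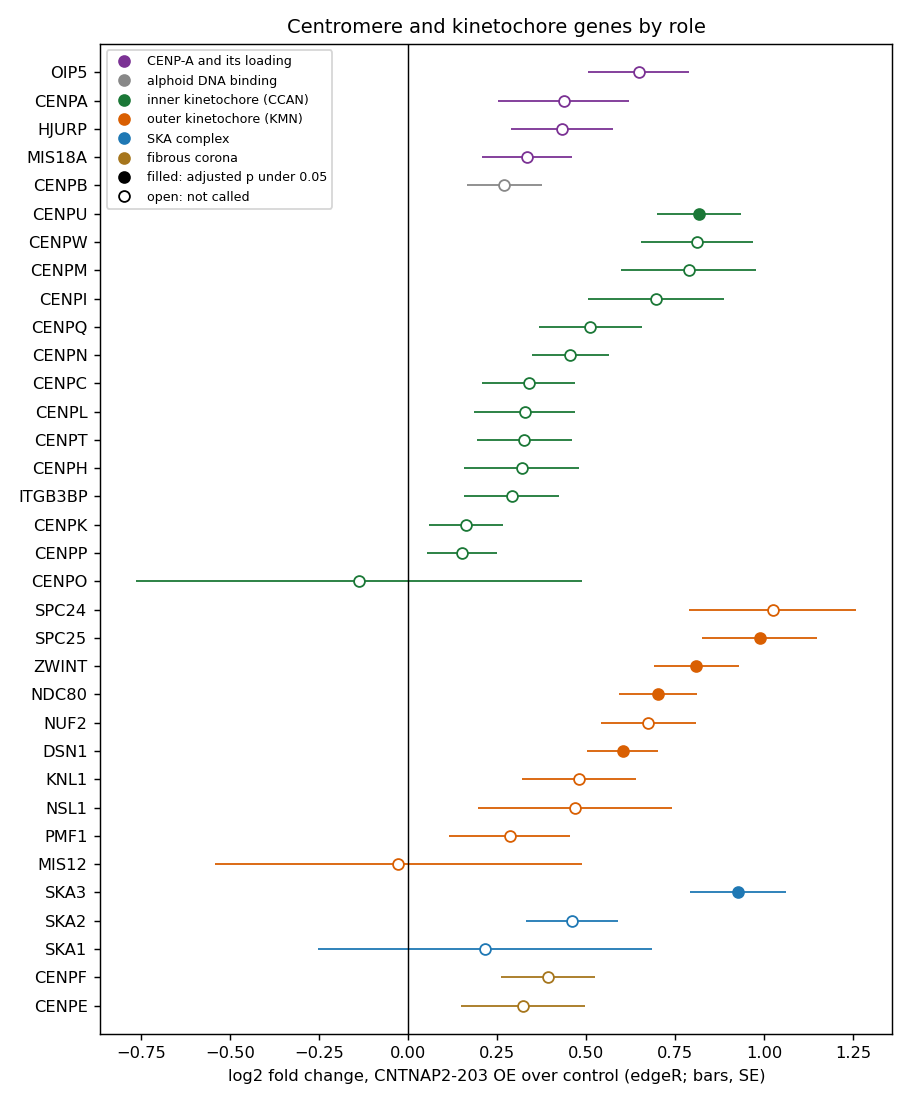
Log2 fold change of CNTNAP2-203 OE over control (x axis, edgeR) for each of the 34 genes, grouped and coloured by role, with bars of 1 SE on either side and filled points for an adjusted p under 0.05. The 6 filled points lie between 0.60 and 0.99, CENPO and MIS12 are the 2 points below 0, and CENPO, MIS12 and SKA1 have the widest bars.

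The calls depended on which libraries were used. Without CNTNAP2-203 OE replicate 3, 10 of the genes were called higher, the 6 above with CENPF, CENPW, KNL1 and NUF2, while calls of higher genes over the transcriptome numbered 310, against 150 with all libraries. Without any one of the other 5 libraries none was called. In those 5 fits, 15 to 20 of the 34 were higher at an unadjusted p under 0.05 in edgeR. The share of all tested genes with such a p in these fits was not counted. Calls over all tested genes varied widely between the fits too, with their range in the last section. DESeq2 called 14 of the 34 higher, with 650 genes higher over the transcriptome, and limma-voom called 5, with 97. The median log2 fold change stayed between 0.40 and 0.47 in the 6 fits that leave out 1 library.

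The 6 genes that rose lie on 6 chromosomes in GENCODE 29 (GRCh38) and have no common neighbourhood. CENPU (ENSG00000151725) lies on the minus strand of chromosome 4, from 184694618 to 184734133, and shares 346 exon bases with PRIMPOL, which had 152 to 247 counts in any library, where CENPU had 841 to 1546. NDC80 (ENSG00000080986) lies on the plus strand of chromosome 18, from 2571511 to 2616635. The other 4 are on minus strands: SPC25 (ENSG00000152253) on chromosome 2 from 168834132 to 168913371, ZWINT (ENSG00000122952) on chromosome 10 from 56357228 to 56361275, SKA3 (ENSG00000165480) on chromosome 13 from 21153595 to 21176602 and DSN1 (ENSG00000149636) on chromosome 20 from 36751791 to 36773818. None of the 5 besides CENPU shares exon bases with another annotated gene.

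Promoter sequence is shown for the 6 genes that rose and for MIS12 and CENPO, the 2 with a negative log2 fold change, because many mitotic genes carry short elements close to their start: the CHR (cell cycle genes homology region), read by the MuvB machinery, CCAAT boxes bound by NF-Y, and E2F sites. Each run covers 130 bases before the RefSeq start and the 20 bases from it on, in GRCh38.p14, 5′ to 3′ on the gene's strand. Capitals mark letters that match TTTGAA or TTCGAA (CHR core), CCAAT, or an E2F site form (TTTGGCGC, TTTCGCGC, TTTCCCGC, TTTGCCGC or GGCGGGAA) on either strand, where the last form, read on the other strand, can overlap TTTCCCGC. The windows are SPC25 at chr2:168890411-168890560 (minus strand), NDC80 at chr18:2571427-2571576 (plus strand), SKA3 at chr13:21176533-21176682 (minus strand), ZWINT at chr10:56361240-56361389 (minus strand), CENPU at chr4:184734077-184734226 (minus strand) and DSN1 at chr20:36773744-36773893 (minus strand), then MIS12 at chr17:5486244-5486393 (plus strand) and CENPO at chr2:24793295-24793444 (plus strand).
SPC25: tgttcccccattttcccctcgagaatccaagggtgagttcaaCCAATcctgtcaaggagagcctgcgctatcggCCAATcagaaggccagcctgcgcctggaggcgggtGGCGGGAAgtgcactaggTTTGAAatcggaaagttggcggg
NDC80: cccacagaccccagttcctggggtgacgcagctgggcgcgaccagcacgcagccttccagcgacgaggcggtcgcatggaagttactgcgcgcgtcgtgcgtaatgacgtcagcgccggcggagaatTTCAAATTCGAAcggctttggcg
SKA3: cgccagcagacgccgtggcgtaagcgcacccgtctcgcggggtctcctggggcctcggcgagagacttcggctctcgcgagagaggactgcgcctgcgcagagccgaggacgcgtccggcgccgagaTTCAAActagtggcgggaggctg
ZWINT: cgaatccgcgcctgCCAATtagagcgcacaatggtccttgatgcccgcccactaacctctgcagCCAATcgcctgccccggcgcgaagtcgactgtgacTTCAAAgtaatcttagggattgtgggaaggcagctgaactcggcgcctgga
CENPU: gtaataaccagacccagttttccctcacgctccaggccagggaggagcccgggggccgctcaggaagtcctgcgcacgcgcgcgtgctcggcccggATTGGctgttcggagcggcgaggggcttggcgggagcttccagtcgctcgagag
DSN1: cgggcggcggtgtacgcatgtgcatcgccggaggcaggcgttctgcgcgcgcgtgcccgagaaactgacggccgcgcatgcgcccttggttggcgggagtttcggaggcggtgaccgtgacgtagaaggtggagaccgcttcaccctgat
MIS12: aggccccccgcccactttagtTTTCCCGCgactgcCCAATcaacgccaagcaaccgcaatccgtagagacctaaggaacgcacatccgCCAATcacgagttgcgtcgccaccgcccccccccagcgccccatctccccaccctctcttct
CENPO: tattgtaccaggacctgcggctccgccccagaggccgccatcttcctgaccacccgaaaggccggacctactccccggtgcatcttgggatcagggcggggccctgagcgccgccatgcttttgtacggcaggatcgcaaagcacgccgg

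In SPC25, SKA3 and NDC80 a CHR core begins 3 bases before the start, read as TTTGAA in SPC25, which has another 247 bases before the start, and as its reverse complement in the others, and NDC80 has a TTCGAA directly after it. ZWINT has the reverse form 31 bases before the start. CENPU and DSN1 have no CHR core in the searched window, which runs from 250 bases before the start to 50 bases from it on, while CENPU has a TTTCGCGC match on the other strand 211 bases before the start. MIS12 has 2 CCAAT boxes and a TTTCCCGC but no CHR core, and CENPO has a TTTGAA 37 bases into the transcript, outside the run shown. RefSeq windows were at hand for 29 of the 34 genes, all but CENPH, CENPL, CENPM, KNL1 and MIS18A. TTTGAA was found in 12 of the 29 (41.4%), against 15.4% of 27305 genes with such a window, 1 window a gene. TTCGAA was found in 3 (10.3%, against 1.45%), CCAAT in 16 (55.2%, against 35.7%) and an E2F form in 8 (27.6%, against 5.57%). Either CHR core was found in 14 of the 29 (48.3%), against 16.6%. Of the 6 genes that rose, 4 held either CHR core, and of the other 23 genes with a window, 10 did. Whether these 2 groups of genes differ was not tested. A match is a run of letters and no measured binding, and the comparison set includes genes that were not tested here.

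The NDC80 complex is the microtubule-binding rod of the outer kinetochore, with the NDC80 and NUF2 subunits at the microtubule end and SPC24 and SPC25 at the end that faces the chromosome. NDC80 was at 101, 97.6 and 110 CPM in CNTNAP2-203 OE replicates 1, 2 and 3, and at 70.8, 59.5 and 59.2 CPM in control replicates 1, 2 and 3. The groups did not overlap, and control replicate 1 was the control nearest to the overexpressing cells. Its promoter run, shown above, holds both CHR forms at the start. The rise was 1.63-fold (log2 fold change 0.70, SE 0.110, edgeR adjusted p = 0.0347). SPC25 was at 23.2, 20.05 and 29.1 CPM in CNTNAP2-203 OE and at 11.9, 13.1 and 11.4 CPM in control. Its lowest overexpressing library was still well above its highest control, and the rise was 1.98-fold (log2 fold change 0.99, SE 0.162, edgeR adjusted p = 0.0390). NUF2 and SPC24 did not pass in edgeR and were called by DESeq2. NUF2 was at 28.8, 28.5 and 35.5 CPM against 20.8, 19.3 and 18.0 CPM in control (adjusted p = 0.0564 in edgeR). SPC24 was at 19.98, 30.8 and 33.6 CPM in CNTNAP2-203 OE, against 14.1, 16.7 and 10.7 CPM in control. Its fold change of 2.03 was the largest of the 34, with an SE of 0.235 on the log2 scale and an edgeR adjusted p of 0.0870, since both groups were widely spread. All 4 subunits thus had every CNTNAP2-203 OE library above every control, which was so for 13.7% of all tested genes. Of the 4, 2 passed, where 0.798% of all tested genes were called higher.

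**Figure D2:**
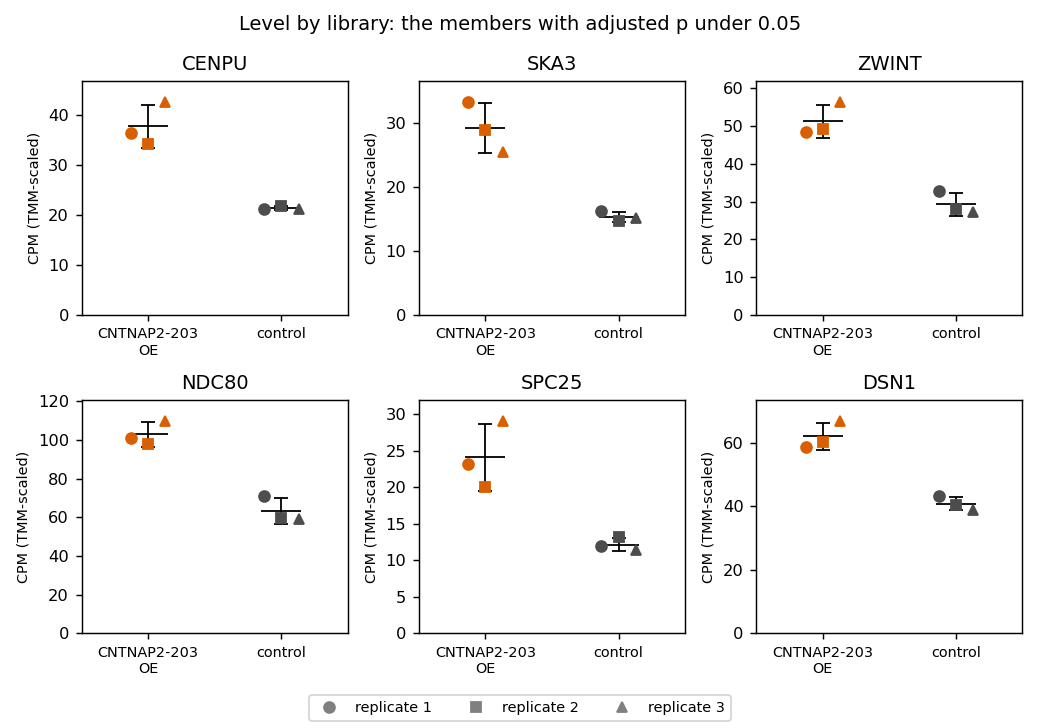
Level in CPM (y axis, TMM-scaled, from 0) of the 6 genes called higher in each of 3 CNTNAP2-203 OE and 3 control libraries, with marker shapes for replicate numbers and a black bar with whiskers for the mean and SD. In each panel the 3 CNTNAP2-203 OE points lie above the 3 control points, and SKA3 is the panel in which replicate 3 is the lowest of the CNTNAP2-203 OE points.

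On a scale per gene length, the authors' FPKM (fragments scaled by gene length and by library size), the 4 subunits were not level with each other in either group. NDC80 was the most abundant at 23.3 ± 0.640 FPKM in CNTNAP2-203 OE and 14.8 ± 1.53 FPKM in control (SD, n = 3 each). SPC25 followed at 10.6 ± 1.66 against 5.51 ± 0.418 FPKM in control, then SPC24 at 7.93 ± 1.92 against 4.02 ± 0.909 and NUF2 at 7.40 ± 0.690 against 4.77 ± 0.355 FPKM. The last 2 lay within each other's spread in CNTNAP2-203 OE. Over all 34 genes, the highest levels per length were those of CENPW at 36.9 ± 6.41 against 21.8 ± 0.955 FPKM in control and of CENPB at 34.8 ± 2.42 against 29.7 ± 1.04 FPKM. Among the lowest was CENPC at 1.19 ± 0.144 against 0.968 ± 0.0398 FPKM. The length derived from count, library total and FPKM was 4.18 times the GENCODE 29 exon length for NSL1 and 1.17 to 1.44 times for the other 33 genes. The level of NSL1 per length is therefore not compared with theirs. These ratios can include a scale factor common to all genes.

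The rest of the outer kinetochore comprises the scaffold KNL1 with its partner ZWINT, and the MIS12 complex of MIS12, DSN1, NSL1 and PMF1, which joins the CCAN to NDC80 and KNL1. ZWINT was at 48.5, 49.1 and 56.3 CPM in CNTNAP2-203 OE and at 32.7, 28.0 and 27.1 CPM in control, a rise of 1.75-fold (log2 fold change 0.81, SE 0.118, edgeR adjusted p = 0.0269). The 2 groups were again fully apart. DSN1 was at 58.7, 60.3 and 66.9 CPM in CNTNAP2-203 OE and at 43.1, 40.3 and 38.9 CPM in control, a rise of 1.52-fold (log2 fold change 0.60, SE 0.100, edgeR adjusted p = 0.0400). It was the 1 of the 4 MIS12 complex genes that passed. PMF1 had log2 fold changes of 0.29 and NSL1 of 0.47 without passing (edgeR adjusted p = 0.433 and 0.421), and PMF1 shares 587 exon bases with the read-through gene PMF1-BGLAP. KNL1 was at 46.3, 47.3 and 31.9 CPM in CNTNAP2-203 OE replicates 1, 2 and 3, against 29.6, 32.0 and 28.4 CPM in control. Replicate 3 fell among the controls, and the gene did not pass with it (log2 fold change 0.48, edgeR adjusted p = 0.187) and passed without it (0.64, edgeR adjusted p = 0.0204).

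The SKA complex strengthens the grip of NDC80 on the microtubule end. SKA3 was at 33.2, 28.9 and 25.5 CPM in CNTNAP2-203 OE and at 16.3, 14.7 and 15.1 CPM in control, a rise of 1.90-fold (log2 fold change 0.93, SE 0.134, edgeR adjusted p = 0.0261). No library of either group came near the other group. SKA2 was at 69.0, 56.6 and 77.5 CPM in CNTNAP2-203 OE against 47.5, 48.7 and 51.4 CPM in control, with the groups apart but without passing (log2 fold change 0.46, edgeR adjusted p = 0.135). SKA1 did not pass (log2 fold change 0.22, edgeR adjusted p = 0.848) and is described with the uneven genes below. Of the corona genes, CENPF was at 232, 243 and 178 CPM in CNTNAP2-203 OE against 171, 173 and 154 CPM in control (log2 fold change 0.39, edgeR adjusted p = 0.191). CENPE, a kinesin motor that moves chromosomes to the spindle equator, was at 46.6, 51.8 and 35.5 CPM against 38.3, 39.5 and 29.2 CPM in control (log2 fold change 0.32, edgeR adjusted p = 0.386). In both corona genes replicate 3 was the lowest of the overexpressing libraries, and for CENPE it lay below 2 of the 3 controls.

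Of the 14 inner kinetochore genes of the CCAN, 1 rose and none fell in edgeR (none was lower at an unadjusted p under 0.05, and DESeq2 called none lower), and 13 were above 0 in log2 fold change. The median was 0.33 (1.26-fold). In 13 of the 14 every CNTNAP2-203 OE library lay above every control, which was so for 13.7% of all tested genes. At an unadjusted p under 0.05 in edgeR, 9 of the 14 were higher, as were 9.41% of all tested genes. CENPU, which binds the mitotic kinase PLK1 at the kinetochore, was at 36.5, 34.2 and 42.6 CPM in CNTNAP2-203 OE and at 21.2, 21.8 and 21.3 CPM in control. The controls were within 1.03-fold of each other, and the rise was 1.76-fold (log2 fold change 0.82, SE 0.118, edgeR adjusted p = 0.0261). CENPW, a histone-fold protein that pairs with CENPT, was at 31.5, 32.9 and 45.4 CPM against 21.9, 20.01 and 20.7 CPM in control (log2 fold change 0.81, SE 0.157, edgeR adjusted p = 0.0558, called by DESeq2). Its partner CENPT was at 28.1, 29.6 and 34.3 CPM against 27.3, 24.5 and 21.6 CPM in control (log2 fold change 0.33, edgeR adjusted p = 0.268). Whether the 2 partners differ in their change was not tested. CENPH, CENPI, CENPK and CENPM bind each other as one CCAN subcomplex. Their log2 fold changes were 0.79 for CENPM and 0.70 for CENPI, against 0.32 for CENPH and 0.16 for CENPK, and none of the 4 passed in edgeR (adjusted p = 0.0969, 0.129, 0.359 and 0.461), while DESeq2 called CENPM and CENPI.

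CENPO, CENPP, CENPQ, CENPU and ITGB3BP (also named CENP-R) encode a further CCAN subcomplex. Apart from CENPU, its genes had log2 fold changes of 0.51 for CENPQ, 0.29 for ITGB3BP, 0.15 for CENPP and -0.14 for CENPO, none of which passed in edgeR, while DESeq2 called CENPQ (adjusted p = 0.0378). CENPN and CENPL, which form the CCAN pair that reads the CENP-A nucleosome, were at 0.46 and 0.33 (edgeR adjusted p = 0.0911 and 0.290), and DESeq2 called CENPN. CENPN shares 457 exon bases with CMC2 and CENPP 3719 with IPPK, both on the opposite strand, so their counts are less certain. CENPC, the scaffold that links the CENP-A nucleosome to the MIS12 complex, was at 12.6 ± 1.12 CPM in CNTNAP2-203 OE and 9.99 ± 0.374 CPM in control (SD, n = 3 each; edgeR adjusted p = 0.239).

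The 4 genes of the CENP-A nucleosome and its loading had a median log2 fold change of 0.43. None of the 4 passed in edgeR, and DESeq2 called OIP5. All 4 were higher at an unadjusted p under 0.05 in edgeR, as were 9.41% of all tested genes. OIP5, also known as MIS18 beta, was at 16.7, 15.6 and 20.3 CPM in CNTNAP2-203 OE against 11.6, 10.7 and 11.2 CPM in control (log2 fold change 0.65, SE 0.141, edgeR adjusted p = 0.0767). It shares 470 exon bases with OIP5-AS1 on the other strand, and reads of the 2 strands were not kept apart by the library kit. OIP5-AS1 had 5590, 5538 and 4375 counts in CNTNAP2-203 OE and 5301, 1154 and 1203 counts in control. HJURP was at 62.7, 78.1 and 72.1 CPM in CNTNAP2-203 OE against 62.5, 48.5 and 46.9 CPM in control, so that CNTNAP2-203 OE replicate 1 and control replicate 1 were almost level (log2 fold change 0.43, edgeR adjusted p = 0.183). CENPA was at 14.1, 10.6 and 14.3 CPM against 11.5, 8.49 and 8.73 CPM in control, with overlapping groups (log2 fold change 0.44, edgeR adjusted p = 0.278). MIS18A had a log2 fold change of 0.33 (edgeR adjusted p = 0.231). CENPB, which binds alphoid satellite DNA of the centromere, was at 122, 114 and 140 CPM against 104, 99.7 and 108 CPM in control (log2 fold change 0.27, edgeR adjusted p = 0.243).

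**Figure D3:**
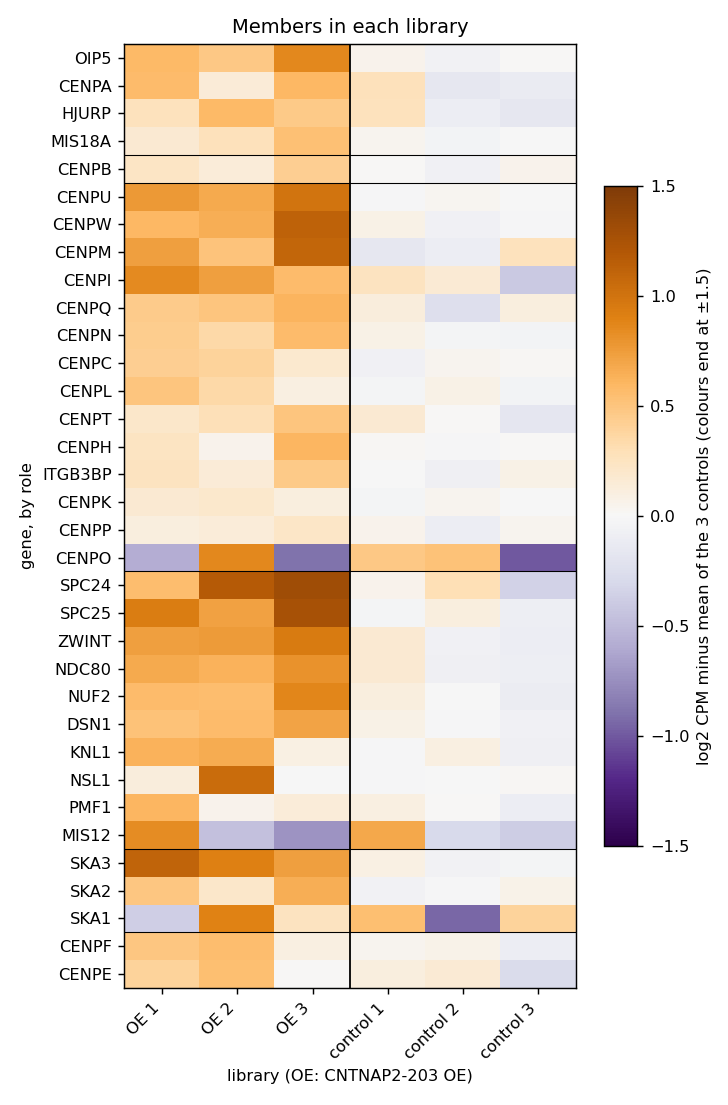
Log2 CPM of each of the 34 genes (rows, by role) in each library (columns, CNTNAP2-203 OE left of control), as the difference from the mean of the 3 controls, with colours ending at 1.5 on either side of 0. Most rows are orange in the 3 CNTNAP2-203 OE columns, and CENPO, MIS12 and SKA1 change colour from library to library within both groups.

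As a mean over the 34 genes, the log2 level relative to the control mean was 0.45, 0.48 and 0.48 in CNTNAP2-203 OE replicates 1, 2 and 3, and 0.11, -0.03 and -0.08 in control replicates 1, 2 and 3. The 3 overexpressing libraries were thus alike in the mean, replicate 3 included, while they differed gene by gene. The corona genes had means of 0.44, 0.55 and 0.06 in the 3 overexpressing libraries, the genes of CENP-A and its loading 0.39, 0.37 and 0.61.

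The position of CNTNAP2-203 OE replicate 3 within its group followed the length of the gene. Of the 9 genes with an exon length under 2500 bases in GENCODE 29, all 9 were higher in replicate 3 than in the mean of replicates 1 and 2, with a median log2 difference of 0.33. CENPW, the shortest at 795 bases, had the largest difference of the 34 at 0.50, and SPC25 had 0.43 at 1841 bases. Of the 8 genes over 5000 bases, 3 were higher in replicate 3 (CENPT, ITGB3BP and CENPP), and the median was -0.32. KNL1 at 10250 bases had -0.55, CENPE at 9444 bases -0.47 and CENPF at 11690 bases -0.42. Across the 34 genes Spearman's rho between exon length and this difference was -0.67, and across 18522 tested genes with a GENCODE length it was -0.27. Both are descriptions across genes of the same 3 libraries, and genes are not independent replicates.

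Set against the controls, the short genes had a median log2 difference of 0.86 in replicate 3 and of 0.53 in replicates 1 and 2, and the genes over 5000 bases had 0.14 and 0.33. Over all tested genes the corresponding medians were 0.20 and 0.02 for short genes and -0.15 and -0.02 for long ones. The trend of replicate 3 with length was thus present over all tested genes too. Its part in the results above was not tested, and with a smooth trend on length removed from each library, an alternative chosen after seeing the data, 9 of the 34 genes were called higher, the 6 above with CENPF, CENPW and NUF2, and their median log2 fold change was 0.43.

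**Figure D4:**
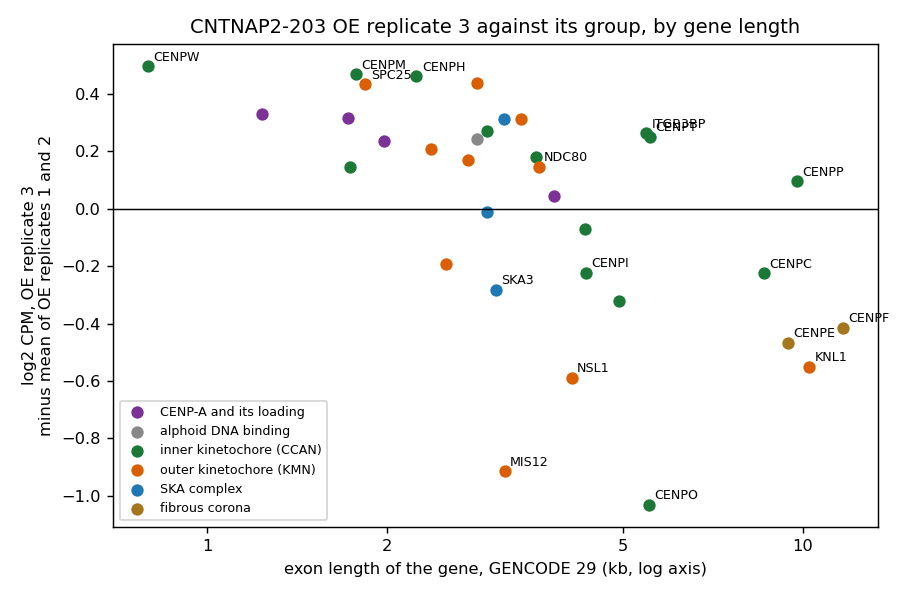
Difference in log2 CPM between CNTNAP2-203 OE replicate 3 and the mean of replicates 1 and 2 (y axis) against exon length in GENCODE 29 (x axis, kb, log scale) for the 34 genes, coloured by role. The points fall from CENPW at 0.50 on the left to KNL1, CENPE and CENPF between -0.55 and -0.42 on the right, with MIS12 and CENPO below the rest.

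The level of 4 genes, CENPO, MIS12, SKA1 and NSL1, changed at least 2-fold between libraries of the same group, and they are singled out after their values were seen. CENPO was at 13.3, 36.4 and 10.7 CPM in CNTNAP2-203 OE and at 27.8, 28.8 and 9.96 CPM in control. It was low in 3 libraries and high in the other 3, and each group held both kinds. MIS12 was at 38.0, 15.4 and 12.8 CPM in CNTNAP2-203 OE and at 34.03, 17.3 and 16.2 CPM in control, with replicate 1 the high library in each group. SKA1 was at 6.56, 15.9 and 10.1 CPM in CNTNAP2-203 OE and at 12.4, 4.41 and 11.2 CPM in control. NSL1 was at 14.7, 28.0 and 13.5 CPM in CNTNAP2-203 OE and between 13.3 and 13.7 CPM in the 3 controls, and its log2 fold change of 0.47 was 0.06 without CNTNAP2-203 OE replicate 2. CNTNAP2-203 OE replicate 2 was the highest overexpressing library for CENPO, SKA1 and NSL1, and replicate 1 for MIS12. Of the tested genes within the range of average level spanned by the 34, 8.45% also reached a 2-fold change within a group, against 11.8% of the 34.

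The same 4 genes had the largest SEs of the 34, from 0.271 to 0.626 on the log2 scale. CENPO shares 1488 exon bases with ADCY3 and 247 with PTRHD1, both on the opposite strand. ADCY3 had 3549, 3747 and 2016 counts in CNTNAP2-203 OE and 2515, 2670 and 3523 counts in control, and CENPO had 564, 1502 and 376 against 1102, 1136 and 421 counts. MIS12 shares 301 exon bases with DERL2, whose counts were 1231, 1207 and 1202 in CNTNAP2-203 OE and 1239, 1475 and 1259 in control and so did not follow those of MIS12. SKA1 and NSL1 overlap no other gene in GENCODE 29. For NSL1 the length ratio given above stood out, so bases beyond its GENCODE 29 exons may have been counted. The part of overlapping genes in these differences was not tested.

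**Figure D5:**
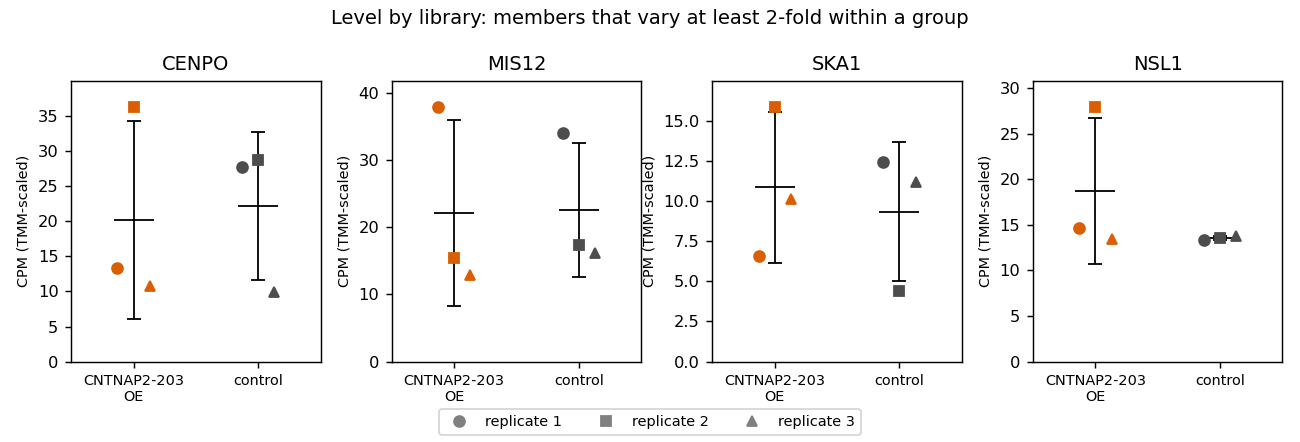
Level in CPM (y axis, TMM-scaled, from 0) of CENPO, MIS12, SKA1 and NSL1 in each of 3 CNTNAP2-203 OE and 3 control libraries, with marker shapes for replicate numbers and a black bar with whiskers for the mean and SD. For CENPO, MIS12 and SKA1 the groups overlap from end to end, and for NSL1 the square of CNTNAP2-203 OE replicate 2 stands alone at 28.0 CPM.

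A second list of 34 genes, with further kinetochore and spindle checkpoint proteins outside the list above, also had mostly positive log2 fold changes. Of the 34, all tested, 5 (14.7%) rose and none fell in edgeR, against 0.798% and 0.596% of all tested genes. None was lower at an unadjusted p under 0.05 (7.84% of all tested genes were), and DESeq2 called 15 higher and none lower. The log2 fold change was positive for 29 (85.3%), against 49.6% of all tested genes, with a median of 0.36, against -0.004. Every CNTNAP2-203 OE library lay above every control for 23 (67.6%), against 13.7% of all tested genes. This list too was chosen with earlier results of these data known, so the shares only describe it. The 6 with the smallest p were MAD2L1, TRIP13, CENPV, TTK, CDCA8 and BIRC5. MAD2L1, the checkpoint protein MAD2, was at 39.8, 41.7 and 45.8 CPM in CNTNAP2-203 OE against 21.2, 23.3 and 19.9 CPM in control (log2 fold change 0.98, SE 0.114, edgeR adjusted p = 0.0160). TRIP13, an ATPase that remodels MAD2, was at 49.6, 49.9 and 49.2 CPM in CNTNAP2-203 OE against 29.8, 26.4 and 25.4 CPM in control (log2 fold change 0.87, SE 0.103, edgeR adjusted p = 0.0161). TTK, the kinase also called MPS1 that starts the checkpoint at the kinetochore, was at 48.8, 52.8 and 48.3 CPM against 31.2, 33.8 and 28.6 CPM in control (log2 fold change 0.68, edgeR adjusted p = 0.0337). In these 3 checkpoint genes the groups were fully apart.

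The chromosomal passenger gene CDCA8 was at 69.9, 76.9 and 69.6 CPM in CNTNAP2-203 OE against 52.4, 45.5 and 42.6 CPM in control and passed (log2 fold change 0.62, edgeR adjusted p = 0.0457). BIRC5, of the same complex, was at 29.9, 33.3 and 32.9 CPM against 22.8, 20.8 and 19.5 CPM in control and did not (log2 fold change 0.61, edgeR adjusted p = 0.0501). Both had their groups fully apart. CENPV was close to undetected, at 1.16, 0.799 and 1.00 CPM in CNTNAP2-203 OE and at 0.151, 0.152 and 0.189 CPM in control, and its fitted log2 fold change of 2.56 rests on few counts (edgeR adjusted p = 0.0246). RSF1, CLASP1, CLASP2, NDE1 and NDEL1 were the 5 with a negative log2 fold change, from -0.24 to -0.05, and none of them passed in edgeR. For RSF1 and CLASP1 every CNTNAP2-203 OE library lay below every control, at 51.5 to 62.8 against 63.9 to 68.7 CPM and at 66.5 to 93.0 against 93.8 to 99.4 CPM in control. That was so for these 2 of the 34 genes and for 12.8% of all tested genes. Their unadjusted p in edgeR was 0.127 and 0.166. All calls of this list were lost without control replicate 1, 2 or 3 or without CNTNAP2-203 OE replicate 1, 2 remained without replicate 2, and 8 were made without replicate 3. Calls of higher genes over all tested genes rose without CNTNAP2-203 OE replicate 3 too, as given above.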

How the data were processed

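RNA sequencing counts of 6 CAL27 libraries were analysed. Ribosomal RNA was removed from total RNA and TruSeq RNA v2 libraries, which carry no strand mark, were made, per the labels' protocols. Trim Galore 0.4.4 and the build hg38 come from the submitters' processing notes. For aligner, counter and annotation, the sources used here give no name. The labels say that the reverse read file of control replicate 1 was missing. Whether its counts use one read or both is not stated there. The authors deposited raw counts per gene, not normalized, and a table of log2 values that are log2(FPKM + 1): with that offset, lengths derived from count over FPKM had a median coefficient of variation of 0.225% across libraries, and with no offset 2.23%. FPKM was computed back from it for levels between genes.

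Counts were tested with edgeR 4.0.16 in R 4.3.3 (filterByExpr, minimum count 10, TMM, robust quasi-likelihood fit, group as the only term), with Benjamini-Hochberg adjustment over 18786 genes and a threshold of 0.05. SEs come from the log2 fold change and the F statistic (its size over root F). Log2 CPM by library used a prior count of 2. The fit was tested on simulated counts. No 2 libraries of a group agreed within sampling noise (chi-square per degree of freedom 32.6 to 87.7). Coordinates, exon lengths and overlaps are from GENCODE 29 (GRCh38), promoter windows from RefSeq (GRCh38.p14), the first listed for a gene.

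The 34 genes, their roles and the second list were chosen with earlier results of these data known. Values by library are given for members that passed, the 2 with the smallest p in each role, and others named after their values were seen, which are CENPA, CENPT, KNL1, NUF2, SPC24 and the uneven genes; of the second list, the 6 with the smallest p. Alternatives were DESeq2 1.42.0, limma-voom and limma on the log2 table (limma 3.58.1), RLE scaling, no filter, the replicate number as a block, leaving out each library, and, added after seeing the data, removal of a length trend.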

Additional observations from a re-analysis of the deposited data

How the results depend on the processing

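No alternative called any of the 34 genes or of the second list lower. RLE scaling, no filter and limma-voom left the number of centromere and kinetochore genes called higher within 1.5 times of 6, at 6, 8 and 5, and limma on the log2 FPKM gave 5. DESeq2 gave 14 for these genes, 15 for the second list, and 650 higher and 475 lower over all genes; limma-voom gave 97 and 69 over all genes. With the log2 FPKM values, 99 genes were called higher, 3 of the second list were, and the median of the 34 was 0.32, on a scale whose offset of 1 shrinks changes of low genes. With the length trend removed, 238 genes were called higher over all and 8 of the second list. Replicate numbers did not pair the libraries: deviations from the group means correlated at -0.08, 0.05 and -0.03 for numbers 1, 2 and 3, and 1 of the 3 overexpressing libraries correlated best with its own number. With the replicate block no gene of either list was called (0 and 0; 20 of the 34 had an unadjusted p under 0.05), and 11 genes were higher and 6 lower over all.

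Over the 6 fits without 1 library, members called higher ranged from 0 to 10, second-list genes from 0 to 8, all genes called higher from 8 to 310 and lower from 6 to 235, the median of the 34 from 0.40 to 0.47 and that of all genes from -0.009 to 0.002. Adjusted p of the 6 called genes was at most 0.158 for CENPU, 0.146 for SKA3, 0.166 for ZWINT, 0.190 for NDC80, 0.192 for SPC25 and 0.208 for DSN1, and their direction held in all 6. Reversals of single genes concern the uneven ones, none of them called: CENPO ranged from -0.88 to 0.16, MIS12 from -0.67 to 0.40 and SKA1 from -0.16 to 0.48, and the cause was not tested. CENPO was positive without CNTNAP2-203 OE replicate 1 (0.09) or 3 (0.16) or control replicate 1 (0.06) or 2 (0.10), MIS12 without CNTNAP2-203 OE replicate 2 (0.18) or 3 (0.24) or control replicate 1 (0.40), and SKA1 negative without CNTNAP2-203 OE replicate 2 (-0.16) or control replicate 2 (-0.12).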
